A study of Mus musculus with 10 samples.

Results

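The genes of the standard proteasome were followed through reprogramming of mouse fibroblasts to induced pluripotent stem cells (iPSC). Members were all genes whose single symbol on the array annotation ran from Psma to Psmg with a number, leaving out Psmb8, Psmb9 and Psmb10, the catalytic subunits of the immunoproteasome. This gave 43 genes of 12393 with a single symbol. All 43 read above 4 on the log2 scale on 2 or more arrays and so were among the 8599 genes tested. They comprised 15 genes of the core particle (8 of the alpha and 7 of the beta ring), 20 of the regulatory cap (6 ATPases and 14 other subunits or assembly factors), the 3 activators Psme1, Psme3 and Psme4, the inhibitor Psmf1, and the 4 core assembly chaperones Psmg1 to Psmg4. Each gene was read from its brightest probe set. The activator gene Psme2 was no member because its probe set names a second gene as well, and Psmb11 was not among the genes with a single symbol.

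The proteasome is the protease complex that degrades most ubiquitin-tagged proteins. Its barrel-shaped core holds the cutting sites inside the beta rings, and the cap binds ubiquitin, removes it, unfolds the substrate with a ring of ATPases and feeds it through the gate formed by the alpha rings. Alternative activators open the same gate without ubiquitin, and in cells exposed to interferon the standard catalytic subunits are replaced by those of the immunoproteasome. Pluripotent cells are known for high proteasome activity, which in human embryonic stem cells has been linked to the cap subunit PSMD11.

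The study hybridised 10 single-colour Affymetrix arrays in 5 groups of 2. The reference groups were iPSC cultured in 2i/serum, a medium with inhibitors of ERK signalling and of GSK3, and iPSC kept together with mouse embryonic fibroblasts (MEFs). The other 3 groups were secondary MEFs in which the Yamanaka factors had been expressed for 32 days, as a sample with no fraction named (day 32), as a Sox2-positive fraction and as a Sox2-negative fraction. The series title names RNA FACS, a sort on cellular RNA, so that Sox2 itself defines the fractions. Nothing in the labels tells if the co-cultured MEFs were taken out before lysis, which line the secondary MEFs came from, or whether arrays a and b of a group came from separate cultures. The p-values therefore measure only the spread between these samples. They are Benjamini-Hochberg adjusted over 8599 genes from limma, called under 0.05. An exact permutation test of 2 arrays against 2 cannot go below a two-sided p of 0.33.

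All 10 pluripotency markers examined (Sox2, Nanog, Zfp42, Esrrb, Dppa5a, Tdgf1, Utf1, Dppa4, Fbxo15 and Dnmt3l) were above a log2 value of 4 on every array except those of the Sox2-negative fraction, where 5 or 6 were. The arrays fell in 2 classes. The control probe set for the 3' end of 18S ribosomal RNA read 5.25 to 6.55 on the arrays of iPSC in 2i/serum and of day 32, and 11.35 to 13.22 on those of iPSC with MEFs and of both fractions. The gap between 3' and 5' probe sets of Actb, a measure of RNA integrity and of priming, was 2.94 and 2.70 in iPSC in 2i/serum, 3.32 and 3.88 at day 32, 1.08 to 1.12 in iPSC with MEFs and 0.05 to 0.21 in the fractions. The same gap of Gapdh was 1.13 and 0.84 in iPSC in 2i/serum, 1.47 and 2.25 at day 32, 3.18 and 2.53 in iPSC with MEFs, 1.03 and 1.25 in the Sox2-positive and 1.28 and 1.56 in the Sox2-negative fraction. The median over all tested genes was 7.70 to 7.76 in the former class, 6.48 to 6.53 in iPSC with MEFs and 6.03 to 6.10 in the fractions. The labels name 2 amplification kits without saying which array had which. Comparisons between the classes therefore cannot be told apart from array class, and within each class both gaps move with the comparison made there, of the fractions with iPSC with MEFs and of day 32 with iPSC in 2i/serum. Their part in the results was not tested.

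Relative to each gene's own mean over the 10 arrays, the median proteasome gene lay 0.88 and 0.97 log2 units above it in iPSC in 2i/serum, 0.40 and 0.60 above at day 32, and 0.08 and 0.21 above in iPSC with MEFs. It lay at -0.78 and -0.68 in the Sox2-positive and at -0.82 and -0.66 in the Sox2-negative fraction. The groups did not overlap, except for the fractions with each other. The median over all 8599 genes moved along the same steps, from 0.77 and 0.80 in iPSC in 2i/serum and 0.69 and 0.84 at day 32 to -0.20 and -0.22 in iPSC with MEFs and -0.63 to -0.70 in the fractions. The proteasome genes stood above that background in iPSC with MEFs and below it at day 32. That background holds genes of every brightness, and most members are bright. Among genes with a mean of 8 or more, iPSC in 2i/serum minus iPSC with MEFs had a median of 0.41 over 2894 genes. Over the 32 members of that brightness it was 0.50. The median difference between arrays a and b over the members was 0.17 to 0.30 per group, against 0.25 to 0.41 over all genes.

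**Figure D1:**
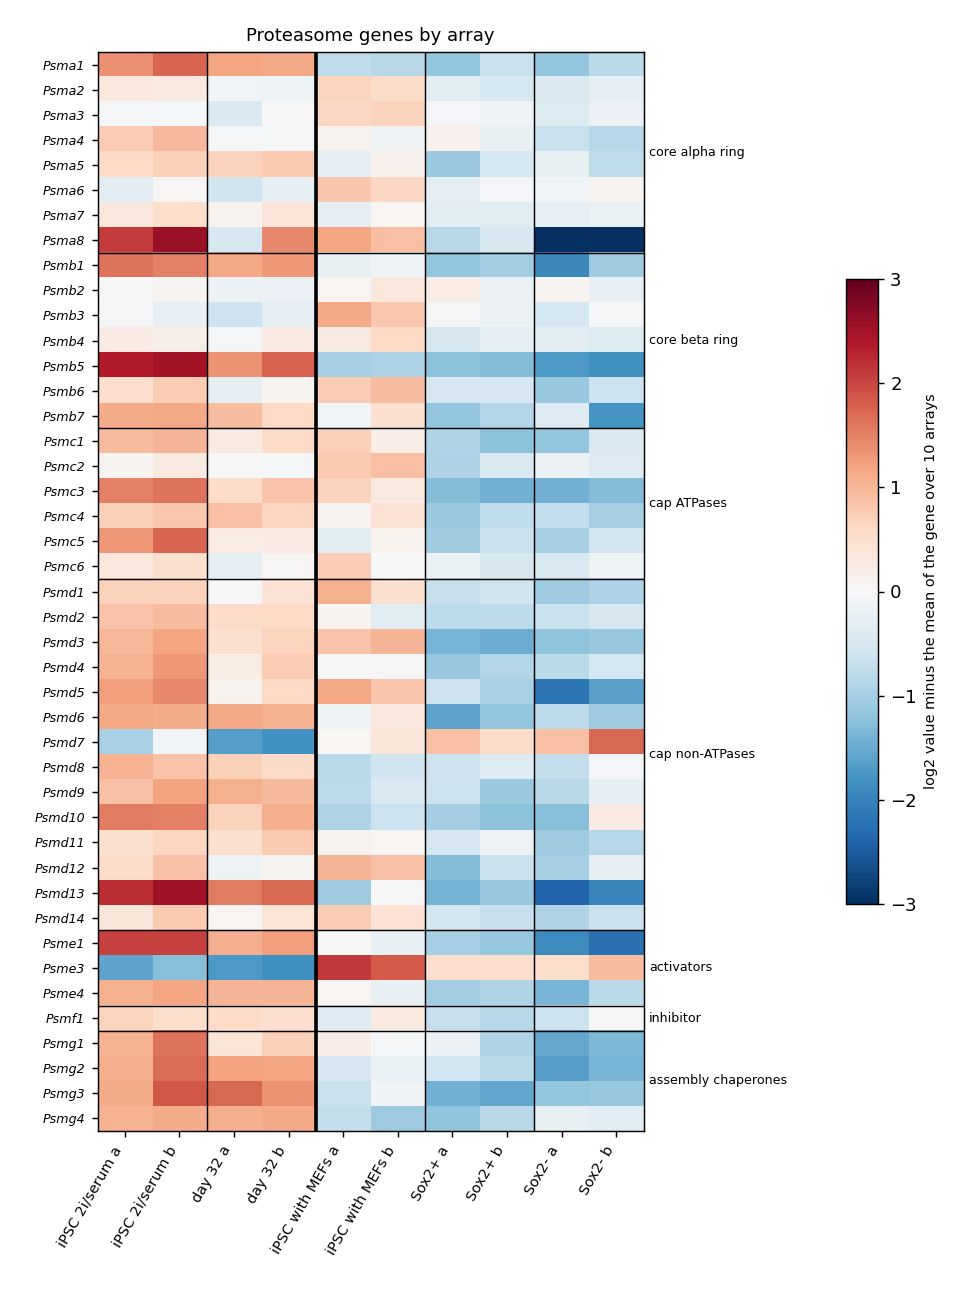
Colour gives each proteasome gene's log2 value minus its mean over the 10 arrays, with genes in rows by role and arrays in columns. The colour scale ends at 3 log2 units in either direction, a limit that only Psma8 in the Sox2-negative fraction passes, and the thick line parts the array classes. Most rows run from red on the left to blue on the right. Psmd7 and Psme3 run the other way.

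Between the Sox2-positive and Sox2-negative fractions, 3 of 43 proteasome genes were higher in the Sox2-positive fraction, the germ-line core subunit Psma8, the cap assembly chaperone Psmd5 and the activator Psme1, and 0 were lower. Of all genes 6.86% were called higher and 5.65% lower, so the share of members called higher, 6.98%, was close to the background. At an unadjusted limma p under 0.05, 8 members were higher and 1 was lower. The share of all genes at that limit is not given, here or in the later comparisons. The median difference was -0.045 over the members (core 0.09, cap -0.17) and -0.02 over all genes. Groups of 2 arrays often did not overlap. Of all 8599 genes 2221 were higher in the Sox2-positive fraction without overlap and 2218 lower, and of the 43 members 12 and 10. Between whole fractions, fewer cells of a type and less RNA per cell cannot be told apart.

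Psma8 encodes an alpha subunit that in mice replaces its close paralogue Psma7 in the proteasome of male germ cells. It read 4.51 and 4.85 on the Sox2-positive arrays and 2.24 and 2.04 on the Sox2-negative ones. The fractions did not overlap, and the latter values lay under the level of 4 below which a probe set was treated as dim. The difference was 2.54 log2 units (SE 0.53, adjusted p = 0.0184), and counted from the level of 4 Psma8 was at least 1.60-fold higher. Psma7 itself read 10.82 and 10.76 against 10.88 and 10.93 and was not called.

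Psmd5 binds an ATPase subunit during assembly of the cap and is absent from the finished particle. It read 7.93 and 7.56 in the Sox2-positive and 6.38 and 6.92 in the Sox2-negative fraction, with no overlap, and was 2.14-fold higher in the former (1.10 log2 units, SE 0.30, adjusted p = 0.0461). Psme1 forms, with Psme2, the ring-shaped activator that interferon induces. It read 6.58 and 6.44 against 5.68 and 5.33, again with no overlap, and was 2.01-fold higher (1.01 log2 units, SE 0.24, adjusted p = 0.0307). These 3 calls depended on single arrays. Only Psma8 was called without Sox2-positive array a, none without Sox2-positive array b (6 members higher and 1 lower at an unadjusted p under 0.05), only Psmd5 without Sox2-negative array b, and Psme1 with Psmd10 (lower) without Sox2-negative array a. With the 4 compared arrays fitted alone, Psma8 was the only call.

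The catalytic subunits were not called between the fractions. Psmb5, which carries the chymotrypsin-like site, read 6.16 and 6.08 in the Sox2-positive and 5.68 and 5.57 in the Sox2-negative fraction (difference 0.50, adjusted p = 0.216). Psmb6, with the caspase-like site, read 9.30 and 9.30 against 8.68 and 9.15, and Psmb7, with the trypsin-like site, 9.41 and 9.68 against 10.17 and 8.78. The arrays did not overlap for Psmb5 and Psmb6 and did for Psmb7, whose Sox2-negative arrays enclosed both Sox2-positive ones.

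Psmd14, the deubiquitinase of the cap, and Psmd11, a structural subunit of the same lid, were likewise not called. Psmd14 read 9.67 and 9.55 against 9.33 and 9.56 and overlapped, whereas Psmd11 read 9.45 and 9.79 against 8.88 and 9.10 and did not (difference 0.63, adjusted p = 0.134). The other activators and the inhibitor were not called. Psme4, a large nuclear activator, read 8.57 and 8.72 against 8.23 and 8.82, and Psme3, a nuclear activator, 10.60 and 10.59 against 10.61 and 11.03. Psmf1, an inhibitor of the core in vitro, read 6.76 and 6.60 against 6.80 and 7.46. Only Psme4 overlapped.

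The assembly chaperones, which pair up to build the alpha ring, split without a call. Psmg1 read 8.23 and 7.51 in the Sox2-positive against 6.87 and 7.06 in the Sox2-negative fraction, and its partner Psmg2 6.96 and 6.72 against 5.88 and 6.13. Both were higher in the Sox2-positive arrays with no overlap (adjusted p = 0.103 and 0.0835). The other pair lay the opposite way, Psmg3 at 4.56 and 4.44 against 4.84 and 4.85 and Psmg4 at 4.12 and 4.49 against 5.09 and 4.99 (adjusted p = 0.524 and 0.0892).

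**Figure D2:**
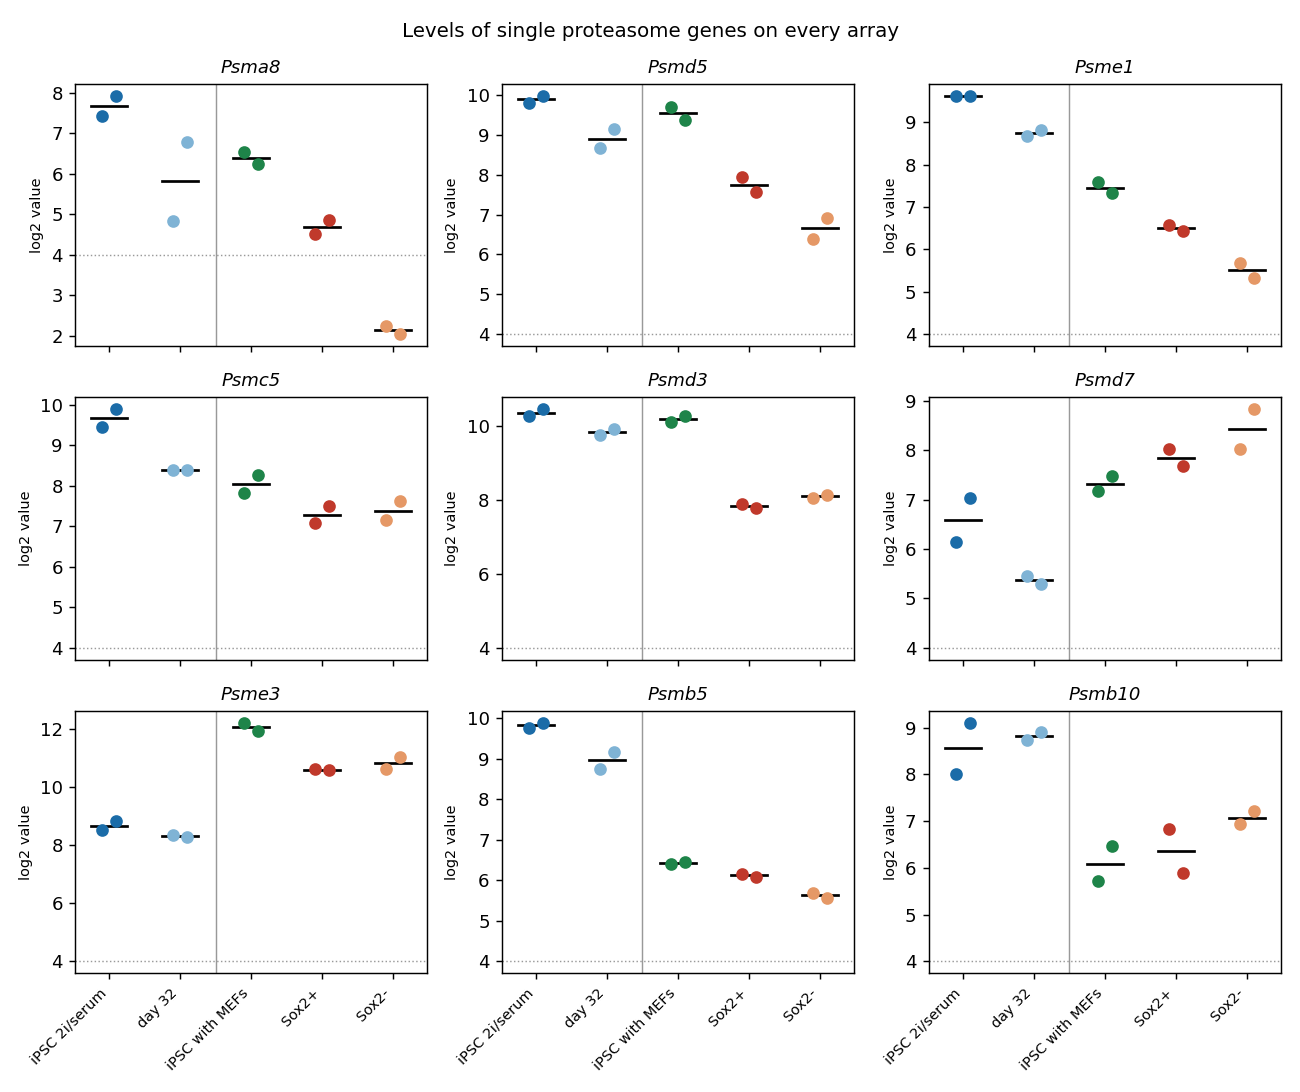
Log2 values of 9 proteasome genes on every array (points) with group means (bars); the dotted line marks the level of 4 and the vertical line parts the array classes. Psma8, Psmd5 and Psme1 step down from iPSC with MEFs through the Sox2-positive to the Sox2-negative fraction, while Psmd7 and Psme3 are higher in the class with high 18S.

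Against iPSC with MEFs, many proteasome transcripts were lower in both fractions. In the Sox2-positive fraction 23 of 43 members (53.5%) were lower and 0 higher, where 29.8% of all genes were lower and 6.13% higher. At an unadjusted limma p under 0.05 the counts were 28 lower and 0 higher, with no share of all genes at that limit to set beside them. In the Sox2-negative fraction 28 members (65.1%) were lower and 1 higher, where 35.6% of all genes were lower and 12% higher. The median difference was -0.88 over the members and -0.46 over all genes in the former comparison, and -1.03 against -0.51 in the latter. The members are bright genes, and 32 of them had a mean of 8 or more. Among the 2894 genes of that brightness, 47.6% and 51.8% were lower in the 2 comparisons, with medians of -0.83 and -0.85, and among those 32 members 62.5% and 71.9% were lower, with medians of -0.98 and -1.03. Without overlap, 36 and 33 of the 43 members lay lower and 1 and 2 higher. Of all 8599 genes 4555 and 4642 lay lower without overlap and 1579 and 1879 higher. Of the 2894 genes with a mean of 8 or more, 2176 and 2098 lay lower and 220 and 290 higher. The comparisons share the arrays of iPSC with MEFs, and 21 members were called lower in both.

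These counts depended on the scaling. With each array's median gene subtracted, 10 members were lower and 0 higher in the Sox2-positive fraction, and 14 lower and 2 higher in the Sox2-negative. With quantile normalization they were 4 and 0, and 8 and 2. The median difference over all genes moved with it, to -0.01 and -0.07 after the subtraction and to -0.11 and -0.13 with quantile normalization, while that of the members became -0.43 and -0.59, and -0.23 and -0.26. Of all genes 13.5% and 21.9% were lower after the subtraction, and 11.3% and 21% with quantile normalization. The share of the 43 members called lower was above these after the subtraction and was not with quantile normalization. Omitting an array of the comparison left 10 to 16 members called in the Sox2-positive fraction. The count was 10 without iPSC with MEFs array a, 13 without its array b, 14 without Sox2-positive array a, and 16 without Sox2-positive array b. For the Sox2-negative fraction the count was 19 to 24, with 19 left without iPSC with MEFs array a.

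Of the core, 8 of 15 genes were lower in the Sox2-positive and 11 of 15 in the Sox2-negative fraction, with medians of -0.81 and -0.80. All 15 differences were below 0 in each, as were those of 5860 and 5750 of all 8599 genes. Among the 2894 genes with a mean of 8 or more, 2493 and 2425 were below 0. In the Sox2-positive fraction the beta-ring gene Psmb6 fell the most after Psma8. It read 10.56 and 10.75 in iPSC with MEFs, 9.30 and 9.30 in the Sox2-positive and 8.68 and 9.15 in the Sox2-negative fraction, a fall of 1.36 (SE 0.27, adjusted p = 0.0059) and of 1.74 (SE 0.27, adjusted p = 0.00117). No fraction array reached those of iPSC with MEFs. Psmb7 read 10.49 and 11.05 in iPSC with MEFs and was called lower in the Sox2-negative fraction (adjusted p = 0.0332) and not in the Sox2-positive one (adjusted p = 0.0507). Psmb5 read 6.40 and 6.45 there and was likewise called lower only in the Sox2-negative fraction, with adjusted p = 0.0239 against 0.355. The difference between the fractions was itself not called for either gene. For each gene the call in the Sox2-negative fraction was kept on leaving out 1 of the 4 arrays and lost on leaving out any other, with adjusted p up to 0.188 for Psmb7 and 0.0989 for Psmb5.

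Psma8 read 6.53 and 6.25 in iPSC with MEFs. It was 3.27-fold lower in the Sox2-positive fraction (-1.71, SE 0.53, adjusted p = 0.0343) and at least 5.24-fold lower in the Sox2-negative fraction (-4.25, SE 0.53, adjusted p = 0.000505). Leaving out any of the 4 arrays ended the first call, with adjusted p from 0.0676 to 0.156, and none ended the second. Psmb4, Psma2, Psma3, Psma6, Psmb1 and Psmb3 were the other core genes lower in both, besides Psmb6, with differences from -1.33 to -0.72. In the Sox2-positive fraction the calls of Psmb4, Psma2, Psma3, Psma6, Psmb1 and Psmb3 were all lost with array medians subtracted and with quantile normalization. With the mean of their probe sets Psma6 and Psmb3 were called in neither fraction. The other probe set of Psmb3, 1417052_at, lay higher in both (0.705 and 0.32).

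In the Sox2-positive fraction the member that fell the most belonged to the cap. Psmd3, a structural subunit of the cap's lid, read 10.12 and 10.28 in iPSC with MEFs, 7.88 and 7.79 in the Sox2-positive and 8.05 and 8.14 in the Sox2-negative fraction. Psmd3 was 5.15-fold lower in the former (-2.37, SE 0.23, adjusted p = 0.000847) and 4.30-fold lower in the latter (-2.11, SE 0.23, adjusted p = 0.000308). The arrays of the fractions lay far from those of iPSC with MEFs, and the call held under every alternative run for it. Psmd12, also of the lid, read 10.93 and 10.80, then 8.61 and 9.26, then 8.92 and 9.63, and fell by 1.93 (adjusted p = 0.0033) and by 1.59 (adjusted p = 0.00437). Psmd5 read 9.70 and 9.37 in iPSC with MEFs and fell by 1.79 (SE 0.30, adjusted p = 0.00323) and by 2.89 (SE 0.30, adjusted p = 0.000279).

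Among the 6 ATPases, 4 were lower in each fraction, with medians of -1.35 and -1.12. Psmc3 read 9.16 and 8.74 in iPSC with MEFs against 7.17 and 7.02 in the Sox2-positive and 7.02 and 7.17 in the Sox2-negative fraction. Psmc3 was 3.62-fold lower in each (-1.86, SE 0.25, adjusted p = 0.0016 and 0.000722). Psmc1, Psmc2 and Psmc4 were also lower in both. Psmc5 (adjusted p = 0.0742 and 0.0927) and Psmc6 were not called. None of their fraction arrays reached the arrays of iPSC with MEFs, which also held for most genes with a mean of 8 or more.

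The deubiquitinase Psmd14 read 11 and 10.66 in iPSC with MEFs and fell by 1.22 (adjusted p = 0.00955) and by 1.39 (adjusted p = 0.00342). Psmd11 read 10.06 and 10 and was called only in the Sox2-negative fraction (-1.04, adjusted p = 0.00885, against -0.41, adjusted p = 0.23), a difference between fractions that was not called. Its probe sets disagreed. In the Sox2-positive and Sox2-negative fractions 1456104_at lay higher (1.465 and 0.775) and 1437080_s_at lower (-0.955 and -1.225). With the mean of its probe sets Psmd11 was called in neither fraction. Psmd7, the partner of Psmd14 that has lost its own catalytic activity, was the only member called higher. It read 7.17 and 7.47 in iPSC with MEFs, 8.02 and 7.67 in the Sox2-positive and 8.02 and 8.83 in the Sox2-negative fraction, and rose by 1.11 in the last (SE 0.37, adjusted p = 0.0367). The other probe sets of Psmd7 did not follow. The call was kept on leaving out 1 of the 4 arrays and lost on leaving out the others, and with the mean of its probe sets the adjusted p was 0.947.

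On their brightest probe sets, all 3 activators were lower in both fractions. Psme1 read 7.58 and 7.34 in iPSC with MEFs and fell by 0.95 (SE 0.24, adjusted p = 0.0164) and by 1.96 (SE 0.24, adjusted p = 0.000503). Its call in the Sox2-positive fraction was lost with array medians subtracted and with quantile normalization. Leaving out an array gave differences of -1.07 to -0.83 there. Psme3 read 12.21 and 11.93 and fell by 1.48 (adjusted p = 0.00368) and by 1.25 (adjusted p = 0.00441). Its other kept probe set, 1418079_at, differed by only -0.265 and -0.075 (limma adjusted p = 0.452 and 0.828 over the kept probe sets). With quantile normalization Psme3 was called in neither fraction. Psme4 read 9.69 and 9.41 and fell by 0.91 (adjusted p = 0.0289) and by 1.03 (adjusted p = 0.0131), but its other kept probe sets lay the opposite way. Probe set 1426824_at differed by 0.88 and 0.43 and 1452211_at by 0.66 and 0.15, both higher in the fractions. With the mean of its probe sets Psme4 was called in neither fraction, and in the Sox2-positive one its difference turned to 0.21. The first call was also lost on leaving out any of the 4 arrays (adjusted p from 0.0567 to 0.157). Psmf1 read 7.05 and 7.73 and was not called. Of the chaperones, Psmg3 (5.33 and 5.89 in iPSC with MEFs) was lower in the Sox2-positive fraction, by -1.11 with adjusted p = 0.0262, a call lost on leaving out any of the 4 arrays (adjusted p from 0.0521 to 0.164). Psmg1 (8.61 and 8.34) and Psmg2 (7.02 and 7.32) were lower in the Sox2-negative fraction, by -1.51 and -1.17 with adjusted p = 0.00535 and 0.00858. Psmg4 (4.61 and 4.24) was called in neither.

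**Figure D3:**
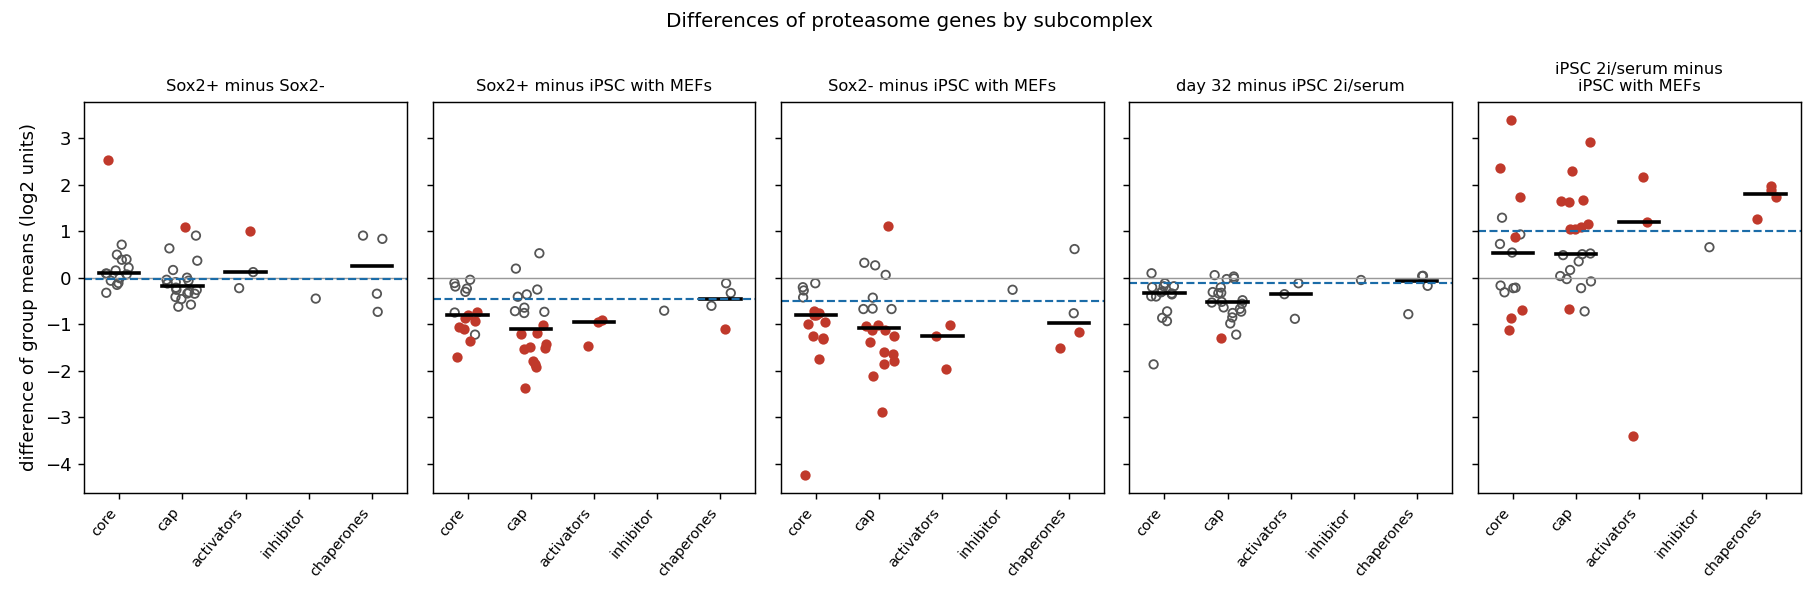
Each point is the difference of group means for a proteasome gene in log2 units, by subcomplex and comparison; filled points were called, bars are medians of groups of 3 or more genes, and the dashed line is the median of all 8599 genes. Against iPSC with MEFs the medians of core, cap and activators lie below that line in both fractions.

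Of 7 measured partners of the particle with other symbols, 3 were lower in the Sox2-positive fraction than in iPSC with MEFs, the cap-bound ubiquitin ligase Ube3c (-1.92, adjusted p = 0.00555), Akirin2, which takes proteasomes into the nucleus (-1.40, adjusted p = 0.0059), and the deubiquitinase Usp14 (-1.14, adjusted p = 0.0296). In the Sox2-negative fraction 4 were lower and 1 higher. Of all genes 29.8% and 35.6% were lower in these comparisons, and of genes with a mean of 8 or more 47.6% and 51.8%. Akirin2 (-1.39, adjusted p = 0.0036), the core assembly factor Pomp (-1.23, adjusted p = 0.00968) and Ube3c (-1.27, adjusted p = 0.0215) were lower there. Ecpas, a scaffold that binds core and cap, was higher (1.89, adjusted p = 0.0043). Ecpas was also the only partner called between the fractions. It read 6.45 and 5.90 in the Sox2-positive and 7.93 and 8.79 in the Sox2-negative fraction, lower in the former by -2.19 (SE 0.39, adjusted p = 0.00955).

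Of 6 measured genes of the Nfe2l1 route, by which cells raise proteasome transcription when the proteasome is blocked, Nfe2l1 itself and its small Maf partner Mafg were lower in both fractions. Nfe2l1 read 9.07 and 8.95 in iPSC with MEFs, 7.43 and 7.57 in the Sox2-positive and 7.06 and 7.07 in the Sox2-negative fraction (-1.51, adjusted p = 0.0046, and -1.95, adjusted p = 0.000891). Mafg differed by -1.98 (adjusted p = 0.00121) and -2.09 (adjusted p = 0.000388). Nfe2l2 was called in the Sox2-negative fraction (-2.54, adjusted p = 0.00203). None of the 6 was called between the fractions. Of 8 ubiquitin shuttle and extraction factors, 5 were lower in each fraction, where 47.6% and 51.8% of genes with a mean of 8 or more were lower. They were the ATPase Vcp, which extracts ubiquitinated proteins (-1.34, adjusted p = 0.0057, and -1.37, adjusted p = 0.00303), its cofactor Nploc4 (-1.80, adjusted p = 0.00172, and -1.70, adjusted p = 0.00104), and the shuttles Rad23b, Ubqln2 and Ubqln4. Ubqln4 fell the most of these in the Sox2-negative fraction (-1.96, adjusted p = 0.000675) and Ubqln2 in the Sox2-positive fraction (-1.91, adjusted p = 0.00117). The shuttle Ubqln2 was also lower in the Sox2-positive than in the Sox2-negative fraction (-1.17, adjusted p = 0.0151).

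Markers of other cells were read beside these results. Of 10 fibroblast markers 8 were measured, and their summed log2 level was 22.1 to 24.2 in the Sox2-positive fraction, 34.3 to 37.15 in the Sox2-negative fraction and 35.5 to 37.3 in iPSC with MEFs. In the Sox2-positive fraction 1 of the 8 was above a log2 value of 4 on each array, against 4 in iPSC with MEFs. None of the 8 was called between the fractions, and Thy1 and Postn did not reach 4 on 2 arrays. Against iPSC with MEFs, Col1a1, Col1a2 and Acta2 were called lower in the Sox2-positive fraction and 0 higher. In the Sox2-negative fraction Col1a1 and Col1a2 were lower and Twist2 and Prrx1 higher, so the similar sums hide opposite differences. Of all genes 29.8% and 35.6% were lower in these comparisons and 6.13% and 12% higher. The immune markers Ptprc, Cd52 and Tyrobp stayed under 4 on every array, while Laptm5 read 10.44 to 12.86. The part of fibroblast RNA in the differences from iPSC with MEFs was not tested.

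Because many proteasome genes were lower together, their promoters were examined in the RefSeq windows of 250 bases before to 50 after the start site (GRCm38.p6), which were at hand for 35 of the 43 members; Psma8, Psmb1, Psmb2, Psmb7, Psmc3, Psmd3, Psmd7 and Psmg2 had no entry. On both strands, 3 motifs were searched, the ETS core CCGGAAG, the CCAAT box (CCAAT), and TGACNNNGC, the core of the antioxidant response element that Nfe2l1 and Nfe2l2 bind with small Maf partners. The ETS core was found in 14 of 35 members (40%), in 9.9% of 27025 genes with a window, in 21.2% of the tested genes and in 25.3% of the tested genes with a mean of 8 or more. Among the members it was held by 9 of 17 cap genes, 2 of 3 activators and 2 of 3 chaperones, and by 1 of 11 core genes. It was found in 7 of 17 members lower in both fractions and in 7 of the other 18. TGACNNNGC was found in 6 members (17.1%), Psmb5, Psmb6, Psmc6, Psmd9, Psmd12 and Psme4, in 14% of all genes, in 16.9% of the tested genes and in 17.5% of those with a mean of 8 or more. CCAAT was found in 12 members (34.3%) and in 41.1%, 43.6% and 45% of these 3 sets of genes. Matches to different motifs overlapped in 0 of the 37 member windows. A match is a run of letters and not a bound site.

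The windows of the 3 members lower in both fractions that hold the ETS core and fell the most in the Sox2-positive fraction are shown 5′ to 3′ on the strand of the gene, with the core in capitals, where it reads CTTCCGG because all 4 matches lie on the opposite strand. Psmc2 has 2 start sites in RefSeq. Psmd5, which is lower in both fractions and differs between them, is shown as a window in which none of the 3 motifs was found.
Psmd12 (chr11:107479278-107479577, plus strand): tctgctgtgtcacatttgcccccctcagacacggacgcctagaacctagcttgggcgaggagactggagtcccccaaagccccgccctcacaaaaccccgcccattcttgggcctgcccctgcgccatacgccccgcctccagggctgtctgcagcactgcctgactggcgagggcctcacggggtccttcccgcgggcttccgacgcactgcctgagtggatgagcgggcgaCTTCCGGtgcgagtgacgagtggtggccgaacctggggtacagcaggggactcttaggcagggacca
Psmc2, upstream start (chr5:21785025-21785324, plus strand): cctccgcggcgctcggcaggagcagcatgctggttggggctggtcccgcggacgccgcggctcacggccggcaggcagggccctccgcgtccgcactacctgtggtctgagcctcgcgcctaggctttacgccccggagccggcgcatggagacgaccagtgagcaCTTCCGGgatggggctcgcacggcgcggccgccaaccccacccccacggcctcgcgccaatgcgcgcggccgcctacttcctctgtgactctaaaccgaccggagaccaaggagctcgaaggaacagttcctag
Psmc2, downstream start (chr5:21786497-21786796, plus strand): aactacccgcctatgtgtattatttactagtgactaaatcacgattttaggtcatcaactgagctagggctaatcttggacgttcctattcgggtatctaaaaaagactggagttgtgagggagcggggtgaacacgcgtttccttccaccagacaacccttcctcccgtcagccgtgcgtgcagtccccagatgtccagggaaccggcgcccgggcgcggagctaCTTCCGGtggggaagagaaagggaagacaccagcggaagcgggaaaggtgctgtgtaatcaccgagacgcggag
Psmc1 (chr12:100109952-100110251, plus strand): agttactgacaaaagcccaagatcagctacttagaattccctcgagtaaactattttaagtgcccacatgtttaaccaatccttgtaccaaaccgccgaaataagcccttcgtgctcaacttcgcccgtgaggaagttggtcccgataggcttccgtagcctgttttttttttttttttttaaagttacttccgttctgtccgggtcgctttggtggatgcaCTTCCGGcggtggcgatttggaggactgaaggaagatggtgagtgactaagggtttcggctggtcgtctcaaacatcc
Psmd5 (chr2:34870913-34871212, minus strand): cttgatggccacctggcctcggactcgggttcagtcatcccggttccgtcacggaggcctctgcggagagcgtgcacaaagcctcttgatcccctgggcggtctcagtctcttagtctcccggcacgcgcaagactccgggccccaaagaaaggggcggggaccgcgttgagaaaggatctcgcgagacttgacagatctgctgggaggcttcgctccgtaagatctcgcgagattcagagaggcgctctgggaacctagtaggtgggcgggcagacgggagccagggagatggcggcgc
The core began 17 bases before the start site in Psmd12, 84 and 24 bases before the start sites of Psmc2, and 28 bases before that of Psmc1. Psmc2 read 11.90 and 12.01 in iPSC with MEFs against 10.19 and 10.65 in the Sox2-positive fraction (-1.54, adjusted p = 0.00298), and Psmc1 10.72 and 10.22 against 9.11 and 8.79 (-1.52, adjusted p = 0.00728). Neither group overlapped the other.

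Within the other class of arrays, day 32 cells were set against iPSC in 2i/serum, and 1 of 43 proteasome genes was lower at day 32 and 0 higher, where 2.5% of all genes were lower and 5.23% higher. The members' share of 2.33% was close to the background. At an unadjusted limma p under 0.05, 13 members were lower and 0 higher, with no share of all genes at that limit to set beside them. The differences of 38 of 43 members were below 0, as were those of 4913 of all 8599 genes. The median was -0.36 over the members (core -0.34, cap -0.53) and -0.11 over all genes. Both 3' to 5' gaps were wider on the day 32 arrays, and their part in these differences was not tested. Psmc5, an ATPase of the cap, read 8.38 and 8.39 at day 32 and 9.46 and 9.89 in iPSC in 2i/serum, and fell by 1.29 (SE 0.30, adjusted p = 0.0339) with no overlap. The call was lost on leaving out any of the 4 arrays (adjusted p from 0.0753 to 0.221) and with the 4 arrays fitted alone.

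Further members were not called at day 32. Psma4, of the alpha ring, read 8.37 and 8.36 against 9.20 and 9.40 (-0.94, adjusted p = 0.0514), and the ATPase Psmc3 9.04 and 9.32 against 9.98 and 10.09 (-0.86, adjusted p = 0.077). Psmb5 read 8.75 and 9.17 against 9.76 and 9.89 (-0.87, adjusted p = 0.0665), Psme1 8.67 and 8.82 against 9.63 and 9.63 (-0.89, adjusted p = 0.0624) and Psmd7 5.45 and 5.29 against 6.15 and 7.04 (-1.23, adjusted p = 0.0843). The arrays did not overlap for these 5 genes. Between these groups 3092 of all 8599 genes lay lower without overlap and 2268 higher, and of the 43 members 29 and 0. Psma4, Psmb5 and Psme1 were called with no filter, and these 3 and Psmd4 with the mean of all probe sets. Psma8 read 4.84 and 6.79 at day 32 against 7.43 and 7.93 (adjusted p = 0.0698), with the day 32 arrays far apart, and was called lower without day 32 array b. Psmb6 read 9.54 and 9.89 against 10.31 and 10.57, Psmb7 11.52 and 11.16 against 11.67 and 11.73, and Psmd14 10.29 and 10.64 against 10.59 and 11.01, none of them called. Psmd11 read 10.42 and 10.72 against 10.43 and 10.60.

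The remaining activators, the inhibitor and the chaperones were not called. Psme3 read 8.36 and 8.26 against 8.51 and 8.82, Psme4 10.64 and 10.63 against 10.70 and 10.81, and Psmf1 8.03 and 7.96 against 8.12 and 7.97. Psmg1 read 8.80 and 9.12 against 9.45 and 10.04, Psmg2 8.74 and 8.72 against 8.61 and 9.20, Psmg3 7.71 and 7.35 against 7.12 and 7.87, and Psmg4 6.41 and 6.47 against 6.36 and 6.44. Of the related genes, the small Maf genes Maff and Mafk were higher at day 32 (2.85, adjusted p = 0.003, and 2.17, adjusted p = 0.00345), and 0 of 7 partners and 0 of 8 shuttle and extraction factors were called. Of the 8 measured fibroblast markers 7 were above 4 on each day 32 array, against 2 and 5 in iPSC in 2i/serum.

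The 2 cultures of established iPSC lie in different array classes, so that culture and class cannot be told apart. In 2i/serum 19 of 43 proteasome genes (44.2%) were higher and 5 (11.6%) lower than with MEFs, where 52.9% of all genes were higher and 8.15% lower. The median was 0.73 over the members and 1.01 over all genes. Among genes with a mean of 8 or more it was 0.50 over 32 members and 0.41 over 2894 genes, with quantile normalization 0.41 over the members and 0.24 over all genes, and with the mean of probe sets 1.05 and 0.99. Which of the medians was higher thus depended on brightness and setting. With each array's median subtracted the split turned to 5 higher and 19 lower, and with quantile normalization it was 12 higher and 4 lower. Of all genes 15.2% were higher and 29.3% lower after the subtraction, and 21.6% and 14.8% with quantile normalization. After the subtraction 6 of the 24 called members had the opposite sign. The direction of the group as a whole therefore depends on the scaling.

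Some members were called under every scaling. Psmb5 read 9.76 and 9.89 in 2i/serum against 6.40 and 6.45 with MEFs, 10.6-fold higher (3.40, SE 0.24, adjusted p = 3.02e-05). Psmd13, a lid subunit, read 8.94 and 9.23 against 5.62 and 6.72 (2.92, adjusted p = 0.000236), and Psma1 11.01 and 11.37 against 8.87 and 8.79 (2.36, adjusted p = 0.00018). Psme1 read 9.63 and 9.63 against 7.58 and 7.34 (2.17, adjusted p = 0.000155). The groups did not overlap, and these 4 calls held under every alternative run. Of all 8599 genes 6076 lay higher in 2i/serum without overlap and 1385 lower, and of the 43 members 28 and 8. Psmd10, a cap assembly chaperone also known as gankyrin, read 7.88 and 7.83 against 5.42 and 5.69 (2.30, adjusted p = 0.00185), with adjusted p up to 0.0895 under the alternatives.

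All 4 core assembly chaperones were higher in 2i/serum. Psmg4 read 6.36 and 6.44 against 4.61 and 4.24 (1.98, adjusted p = 0.000255), Psmg3 7.12 and 7.87 against 5.33 and 5.89 (1.89, adjusted p = 0.00108), Psmg2 8.61 and 9.20 against 7.02 and 7.32 (1.74, adjusted p = 0.000811) and Psmg1 9.45 and 10.04 against 8.61 and 8.34 (1.27, adjusted p = 0.00852). None of these groups overlapped, but Psmg1, Psmg2 and Psmg3 were no longer called with quantile normalization or with each array's median subtracted. Psme4 was higher (1.21, adjusted p = 0.00431) and after that subtraction was not called, at -0.04. Psmb6, Psmb7, Psmd11, Psmd14 and Psmf1 were not called, with differences from -0.22 to 0.93.

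Psme3 went the other way. It read 8.51 and 8.82 in 2i/serum against 12.21 and 11.93 with MEFs, 10.6-fold lower (-3.41, SE 0.26, adjusted p = 3.89e-05), and this call held under every alternative run. Psmb3 (-1.12, adjusted p = 0.00724), Psma6 (-0.86, adjusted p = 0.0168), Psma3 (-0.71, adjusted p = 0.035) and Psmc2 (-0.67, adjusted p = 0.0457) were also lower. Psmb3 read 11.75 and 11.55 against 12.93 and 12.60, and Psma6 11.56 and 11.90 against 12.69 and 12.49. The calls of Psma3 and Psmc2 were lost on leaving out any of the 4 arrays, with adjusted p from 0.0968 to 0.128 and from 0.0924 to 0.186, and that of Psmc2 also with the replicate block (adjusted p = 0.0556). That of Psma6 was lost on leaving out 2 of the 4 arrays and that of Psmb3 on leaving out 1. With the mean of all probe sets Psmb3, Psma6 and Psmc2 changed direction.

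Of the related genes, 3 of the 7 partners were higher in 2i/serum, Ube3c (3.15, adjusted p = 0.000195), the small cap subunit Sem1 (1.39, adjusted p = 0.00149) and Usp14 (1.11, adjusted p = 0.0194), and 0 were lower. Of the Nfe2l1 route, Nfe2l1 (1.01, adjusted p = 0.0123), Nfe2l2 (1.30, adjusted p = 0.029) and the deglycosylase Ngly1 (1.75, adjusted p = 0.0168) were higher and Maff was lower (-2.76, adjusted p = 0.000286). Of the shuttle and extraction factors 3 were higher and 2 lower, with Rad23b at -2.08 (adjusted p = 0.000351) and Ufd1 at 1.63 (adjusted p = 0.00209). These differences cross the array classes as well. Of all genes 52.9% were higher and 8.15% lower in this comparison. The median difference over all genes was 1.01, as large as that of Nfe2l1.

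Different probe sets of a gene did not always tell the same story. Of the members 19 had more than 1 probe set above the filter, 32 further probe sets in all, and between 17 and 24 of these 32 had the sign of the brightest, depending on the comparison. The other kept probe set of Psme3, 1418079_at, read 8.47 and 8.77 in 2i/serum and 9.18 and 9.13 with MEFs, where the brightest differed by -3.41. The other probe set of Psmb3, 1417052_at, read 10.17 and 10.24 against 7.28 and 7.83, opposite to the brightest.

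Psmd11 had 6 probe sets. The brightest fell from 10.43 and 10.60 in 2i/serum to 8.88 and 9.10 in the Sox2-negative fraction, as did 1437080_s_at, from 10.30 and 10.45 to 9.04 and 9.33. By contrast 1431013_at read 2.92 and 3.10 in 2i/serum and 2.76 and 2.79 at day 32, under the level of 4, but 8.72 and 9.16 in iPSC with MEFs, 9.29 and 9.36 in the Sox2-positive and 8.29 and 8.76 in the Sox2-negative fraction. Its values differed between the array classes, which cannot be told apart from the groups they hold. The cause was not tested. The transcript region that each probe set covers was not analysed here, so the value of a gene such as Psmd11 or Psme3 stands for its brightest probe set alone.

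**Figure D4:**
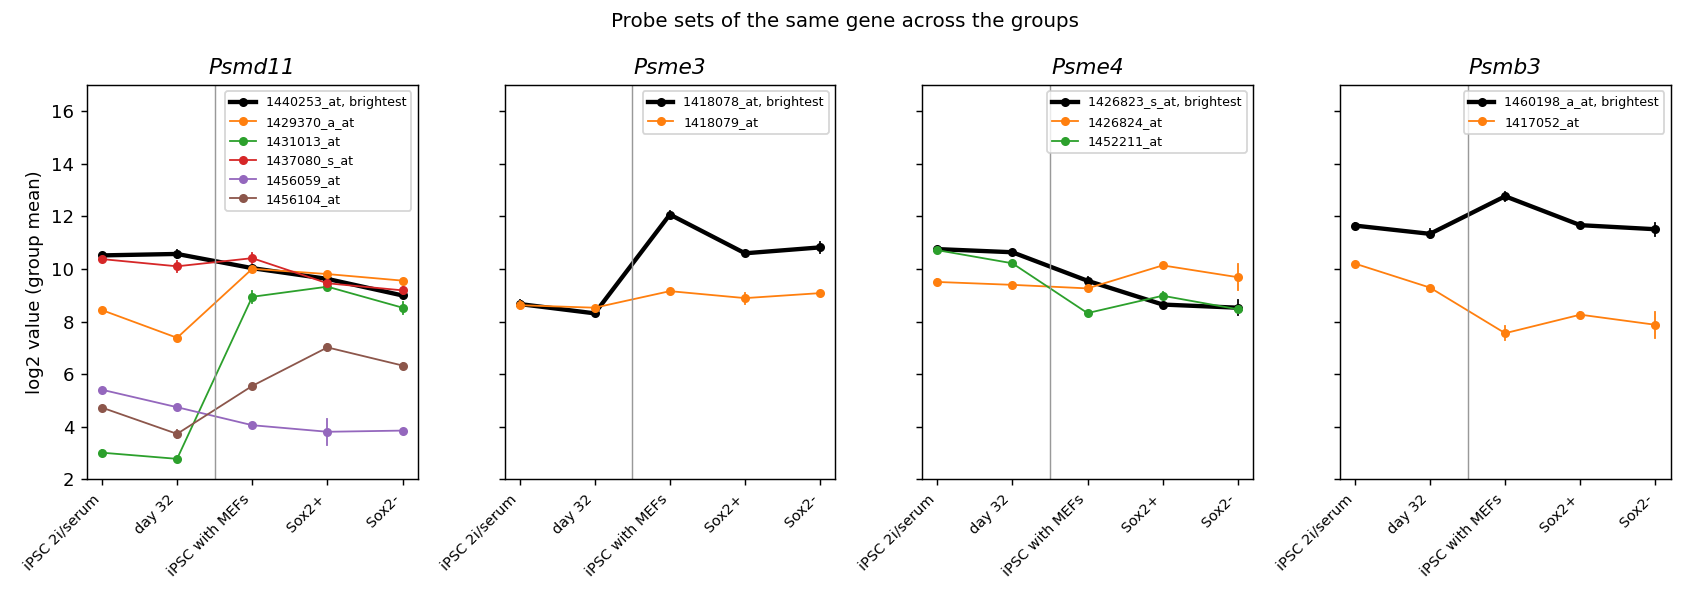
Group means in log2 units for every probe set above the filter of Psmd11, Psme3, Psme4 and Psmb3, with vertical bars joining the 2 arrays; the thick line is the brightest and the vertical grey line parts the array classes. Probe set 1431013_at of Psmd11 lies under 4 on one side of that line and above 8 on the other.

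The immunoproteasome subunits were read beside the standard ones they replace. Psmb8, the counterpart of Psmb5, read at most 2.86 and Psmb9, the counterpart of Psmb6, at most 3.61, both under the level of 4 on all 10 arrays. Psmb10, the counterpart of Psmb7, read 8.02 and 9.11 in iPSC in 2i/serum, 5.71 and 6.46 in iPSC with MEFs, 8.74 and 8.90 at day 32, 6.84 and 5.90 in the Sox2-positive and 6.93 and 7.21 in the Sox2-negative fraction. Psmb10 was called only between the iPSC cultures (2.48, SE 0.44, adjusted p = 0.0014). Of 9 measured genes of antigen presentation and interferon response, B2m was lower in the Sox2-positive than in the Sox2-negative fraction (-1.68, adjusted p = 0.0115), and Tapbp, a peptide-loading factor, was higher (1.35, adjusted p = 0.0456). Against iPSC with MEFs, 1 of the 9 was higher and 1 lower in the Sox2-positive fraction, and 1 higher and 4 lower in the Sox2-negative, with B2m the higher gene in each (1.85, adjusted p = 0.00325, and 3.53, adjusted p = 0.000157). In these comparisons 6.13% and 12% of all genes were higher, and 29.8% and 35.6% lower. The lower genes were Gbp2 in the former and Gbp2, Irf1, Tapbp and Stat2 in the latter. At day 32 against iPSC in 2i/serum 3 of the 9 were higher and 0 lower, where 5.23% and 2.5% of all genes were. They were Tap1 (2.205, adjusted p = 0.0107), B2m (1.505, adjusted p = 0.0236) and Gbp2, under 4 in both groups. In 2i/serum against MEFs 5 were higher and 1, Gbp2, lower, where 52.9% and 8.15% of all genes were. Tap2, Ifit1 and Ifit3 stayed under 4 on every array, at most 3.42, 2.03 and 3.02.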

How the data were processed

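The deposited series table held log2 expression values of 22690 probe sets on 10 arrays, made by the authors with GCRMA and affy per the submitters' processing notes, with versions not given in the sources used here. Values ran from 0.58 to 14.51. The arrays' own scan files were not used here, and the number of arrays limits the precision. Probe sets were named from the platform annotation: 20380 had 1 symbol, 691 several, 1555 none and 64 were controls. A probe set was kept with a log2 value above 4 on at least 2 arrays (14012), and the brightest kept probe set stood for its gene, which gave 8599 genes. A single limma 3.58.1 model in R 4.3.3 held a mean for each of the 5 groups. Differences are first group minus second, and p-values are Benjamini-Hochberg adjusted over 8599 genes. Where the lower group was under 4 on both arrays, only the fold above 4 is given, from group means. The script was tested on simulated data.

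The members, the lists of related genes and the comparisons were chosen with earlier results of these data known. Named by rule were Psmb5, Psmb6, Psmb7, Psmd11, Psmd14, all Psme, Psmf and Psmg genes, Psmb8 to Psmb10, up to 5 called members with the largest rise and 5 with the largest fall, or all where 6 or fewer were called, and up to 4 called genes of each related list in order of p. Some called genes of the related lists are given as counts only. Others were named after their values were seen. Alternatives were no filter, quantile normalization, subtraction of array medians, the mean of a gene's probe sets, the compared arrays alone, the replicate letter as a block, and each array left out. The letters a and b were not treated as pairs: the correlation of their differences between groups was -0.06 to 0.33. Plots were made in Python 3.11.15 using matplotlib 3.10.9.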

Additional observations from a re-analysis of the deposited data

How the results depend on the processing

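The counts of members called in the 5 comparisons, in the order given above, were 3, 23, 29, 1 and 24. Quantile normalization gave 4 for the Sox2-positive and 10 for the Sox2-negative fraction against iPSC with MEFs, and subtraction of array medians 10 and 16. Both bring the arrays to a common level by construction, which made the median difference over all genes smaller in these comparisons. For the fractions against each other the compared arrays alone gave 1. For day 32 against iPSC in 2i/serum, no filter gave 4, the mean of probe sets 5 and the compared arrays alone 0 (13 at an unadjusted p under 0.05). Leaving out an array gave 0 to 2, 10 to 16, 19 to 24, 0 to 1 and 19 to 21. With the replicate block the counts were 2, 23, 29, 1 and 24. It ended the calls of Psmd5 between the fractions (adjusted p = 0.0532), Psma3 in the Sox2-positive fraction against iPSC with MEFs (0.0511) and Psmc2 in 2i/serum against MEFs (0.0556).

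For the 80 differences of members that were called, the alternatives gave 800 values. Of these 577 kept direction and call, 212 kept direction only and 11 turned. For the 40 differences of always-named members that were not called, 353 of 400 values kept direction and stayed uncalled, 10 were called and 37 turned. Of the called differences, the mean of probe sets turned Psme4 to 0.21 and Psmd4 to 0.0075 in the Sox2-positive fraction against iPSC with MEFs, and Psmb3 to 0.77, Psma6 to 1.16 and Psmc2 to 0.03 in 2i/serum against MEFs, by the weight of the further probe sets. Subtraction of array medians turned Psme4 to -0.04, Psma4 to -0.37, Psmc3 to -0.16, Psmd2 to -0.20, Psmd4 to -0.085 and Psmd6 to -0.21 in the latter. The remaining turns are of uncalled differences. In the Sox2-positive fraction against iPSC with MEFs, quantile normalization gave Psmb5 0.0098, Psmd11 0.33, Psmg1 0.052 and Psmg2 0.13, subtraction of medians Psmb5 0.15, Psmd11 0.04, Psmg2 0.12 and Psmg4 0.33, and the mean of probe sets Psmd11 0.0058 and Psmg2 0.23. In the Sox2-negative fraction Psmf1 became 0.22, 0.18 and 0.60 under these 3 settings. At day 32, quantile normalization gave Psme4 0.0075 and Psmf1 0.0043, and the mean of probe sets Psmd11 -0.53. In 2i/serum against MEFs, quantile normalization gave Psmf1 -0.32, subtraction of medians Psmb7 -0.32, Psmd11 -0.76 and Psmf1 -0.59, and the mean of probe sets Psmd11 -1.09. Leaving out an array gave -0.63 to 0.77 for Psmb7 and -0.18 to 0.42 for Psme4 between the fractions, -0.305 to 0.065 for Psmg4 in the Sox2-positive and -0.60 to 0.08 for Psmf1 in the Sox2-negative fraction against iPSC with MEFs, and -0.24 to 0.18 for Psmd14 in 2i/serum against MEFs. At day 32 it gave -0.10 to 0.21 for Psmd11, -0.125 to 0.025 for Psmf1, -0.47 to 0.12 for Psmg2, -0.34 to 0.41 for Psmg3 and 0 to 0.08 for Psmg4. The cause of the other moves was not tested.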
